A study of Danio rerio with 15 samples.

Results

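The Hairy-related her genes of zebrafish examined here were her1, her3, her5, her6, her7, her9 and her11. They were chosen by name, and all 7 were found, each in 1 row, among the 23726 genes of the expression table. Their IDs were ENSDARG00000014722 (her1), ENSDARG00000076857 (her3), ENSDARG00000008796 (her5), ENSDARG00000006514 (her6), ENSDARG00000017917 (her7), ENSDARG00000056438 (her9) and ENSDARG00000002707 (her11). Poly(A) RNA had been sequenced from dechorionated whole embryos at 3, 4 and 4.5 hours post fertilization (hpf). There were 15 libraries. At each stage there was 1 library of MZnup133 embryos (genotype nup133 knockout), 1 of Melys embryos (elys knockout), 1 of Tgnup133 embryos (nup133 transgenic overexpression) and 2 of wildtype embryos. One wildtype library of each stage was the control for both nup133 lines and is called the nup133 set; the other was the control for Melys and is called the elys set. The labels give neither the promoter of the transgene, nor the alleles, nor the number of embryos pooled. Nothing in them says that libraries came from separate clutches, so the p-values below measure only the spread between these libraries, which may be technical.

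The her genes encode basic helix-loop-helix repressors of the Hairy and Enhancer of split family. They bind DNA as dimers and recruit Groucho corepressors, and many, though not all, are switched on by Notch signalling. In zebrafish, her1 and her7 are oscillating genes of the segmentation clock that divides the body axis into somites. The genes her5 and her11 keep the midbrain-hindbrain boundary free of neurons, and her5 is also transcribed in the early endoderm. The genes her3, her6 and her9 restrain neurogenesis in the neural plate, and the table of gene names used here lists the IDs of her3, her6 and her9 under the human-style symbols HES3, HES1 and HES4. nup133 encodes a subunit of the Y-complex of the nuclear pore, and Elys, encoded by ahctf1, brings that complex to chromatin when pores are rebuilt after mitosis.

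Values are FPKM, that is, fragment numbers divided by transcript length and by each library's mapped total, so levels can be compared between genes. In whole embryos, fewer cells with a transcript and less of it per cell cannot be told apart. Absolute depth is unknown. The steps between low values gave a relative depth of 0.881 to 1.58 times that of the first library. The targeted transcript was listed at 0.431, 0 and 0.208 FPKM in MZnup133 at 3, 4 and 4.5 hpf, against 12.6, 13.1 and 11.7 FPKM in wildtype of the nup133 set (log2 difference -3.49 ± 0.21 SE, limma adjusted p = 1.3e-05). In Tgnup133 nup133 had 18.0, 18.4 and 16.4 FPKM, and its difference of 0.46 ± 0.21 did not pass the test (limma adjusted p = 0.34). The RNA did not check the Melys label, since ahctf1 differed by -0.07 ± 0.18 (limma adjusted p = 0.846). All 6 markers of blastula and maternal RNA were present, with pou5f3 at a mean of 608 FPKM, while the 5 markers of later tissues in the table had means of at most 0.683 FPKM and were listed at 0 in 9 to 14 libraries.

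her5 and her11 were the abundant members. Over the 15 libraries her5 averaged 94.5 FPKM and her11 averaged 24 FPKM, followed by her6 at 4.13, her7 at 1.44, her3 at 1.15, her1 at 0.365 and her9 at 0.0253 FPKM. The 5 members with a mean of at least 1 FPKM were tested together with all 13493 genes that reached this level. her1 and her9 stayed under it and are given as values only. All log2 differences below are on the scale of log2(FPKM + 1), which understates the change of low genes, and a gene is said to have risen or fallen where its two-sided limma p, adjusted by Benjamini-Hochberg over all genes tested, was under 0.05.

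In wildtype embryos her5 and her11 appeared together and were highest at 4 hpf. her5 had 9.52, 193 and 93.4 FPKM at 3, 4 and 4.5 hpf in the nup133 set and 9.94, 225 and 140 FPKM in the elys set. her11 had 2.65, 50.4 and 27.6 FPKM in the nup133 set and 1.65, 49.3 and 36.6 FPKM in the elys set. For both genes the 2 wildtype libraries of a stage lay apart from those of each other stage, with no overlap.

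Between 3 and 4 hpf her5 rose by 4.29 ± 0.16 on the log2 scale (limma adjusted p = 0.00161) and her11 by 4.03 ± 0.26 (limma adjusted p = 0.00618). These were 2 of the 5 members tested, where 3.61% of all genes tested rose. Both rises lost the call when a 4 hpf wildtype library was left out (limma adjusted p = 0.0721 to 0.131) and with no filter on low values (0.0551 for her5 and 0.0839 for her11), and her11 also without the elys-set library of 3 hpf (0.0503). Between 4 and 4.5 hpf no member passed the test in limma, 2 had an unadjusted p under 0.05, and 5% of all genes passed. The later values of her5 were 48.5% and 61.9% of those at 4 hpf in the nup133 and elys sets, a difference of -0.86 ± 0.16 (limma adjusted p = 0.0563). For her11 the percentages were 54.8% and 74.2%, with a difference of -0.63 ± 0.26 (limma adjusted p = 0.188). At 4.5 hpf both genes were still above their level at 3 hpf, her5 by 3.42 ± 0.16 (limma adjusted p = 0.00153) and her11 by 3.4 ± 0.26 (limma adjusted p = 0.00301). her6 was the third member to rise between 3 and 4.5 hpf, making 3 of 5, where 14.1% of all genes rose and 22.8% fell. The filter favoured the rise of her6, whose wildtype means were 0.286 FPKM at 3 hpf and 6.43 FPKM at 4.5 hpf. With no filter on low values its call was lost (limma adjusted p = 0.0751).

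In MZnup133 embryos her5 was below wildtype at 3 and 4 hpf and her11 at 4 hpf, and both had their highest value at 4.5 hpf. MZnup133 had 1.01, 37.8 and 143 FPKM of her5 at 3, 4 and 4.5 hpf, against 9.52, 193 and 93.4 FPKM in its wildtype. her11 had 0.84, 14.1 and 46.9 FPKM in MZnup133, against 2.65, 50.4 and 27.6 FPKM in wildtype. MZnup133 thus lay below both wildtype libraries at 3 and 4 hpf for both genes. At 4.5 hpf it was above both for her11 and just above the higher one for her5. Its her5 level was 10.6% of the matched wildtype at 3 hpf, 19.6% at 4 hpf and 154% at 4.5 hpf. The percentage at 3 hpf rests on a low value, 1.01 FPKM, and fragments were not estimated for her5 or her11. While wildtype levels were lower at 4.5 hpf than at 4 hpf, those of MZnup133 at 4.5 hpf were 379% of their 4 hpf value for her5 and 332% for her11.

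**Figure D1:**
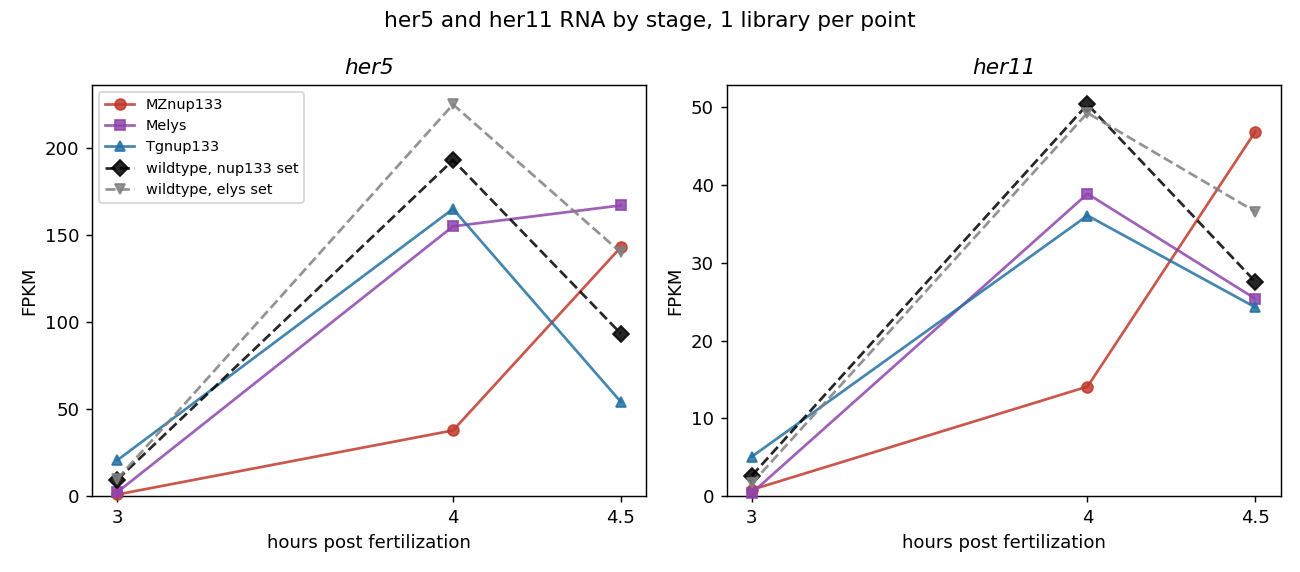
FPKM (y axes, linear, from 0) of her5 (left) and her11 (right) against hours post fertilization, 1 library per point; solid lines join the libraries of MZnup133, Melys and Tgnup133, and dashed lines those of the 2 wildtype sets. Wildtype is highest at 4 hpf, with 193 and 225 FPKM of her5, where MZnup133 has 37.8 FPKM; MZnup133 is highest at 4.5 hpf, with 143 FPKM.

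Tested stage by stage, her5 fell in MZnup133, with differences of -2.28 ± 0.2 at 3 hpf (limma adjusted p = 0.0266) and -2.29 ± 0.2 at 4 hpf (limma adjusted p = 0.017). her11 fell by 1.77 ± 0.33 at 4 hpf (limma adjusted p = 0.0487), while its difference at 3 hpf was -0.78 ± 0.33 (limma adjusted p = 0.248). The share of all genes that fell was 1.82% at 3 hpf and 5.2% at 4 hpf. At 4.5 hpf no member passed in limma, none had an unadjusted p under 0.05, and 21.5% of all genes passed; her5 differed by 0.47 ± 0.2 (limma adjusted p = 0.161) and her11 by 0.53 ± 0.33 (limma adjusted p = 0.288). These tests assume that a lone library varies like the wildtype pairs, and all 3 calls were lost when any 1 wildtype library was left out. The residual degrees of freedom come from the wildtype pairs alone, so leaving out any wildtype library, also of another stage, lowers them. In those fits her5 differed by -2.05 to -2.39 at 3 hpf and by -2.23 to -2.36 at 4 hpf. The her11 difference at 4 hpf was -1.66 to -1.87.

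The change of the MZnup133 effect between 3 and 4.5 hpf was itself tested. It came to 2.75 ± 0.27 for her5 (limma adjusted p = 0.0749) and 1.31 ± 0.44 for her11 (limma adjusted p = 0.192), and 0.0889% of all genes passed. Over the 3 lines, none of the 15 gene-and-line pairs passed this test in limma and 6 had an unadjusted p under 0.05. As 1 effect over the 3 stages, her5 differed by -1.37 ± 0.74 (limma adjusted p = 0.2) and her11 by -0.67 ± 0.47 (limma adjusted p = 0.306). Without the MZnup133 library of 4.5 hpf both passed, her5 at -2.55 (limma adjusted p = 0.0111) and her11 at -1.43 (limma adjusted p = 0.0142). That is the MZnup133 library in which both genes lay above wildtype. With all libraries of 4.5 hpf left out, her5 passed at -2.35 (limma adjusted p = 0.0347) and her11 did not pass.

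**Figure D2:**
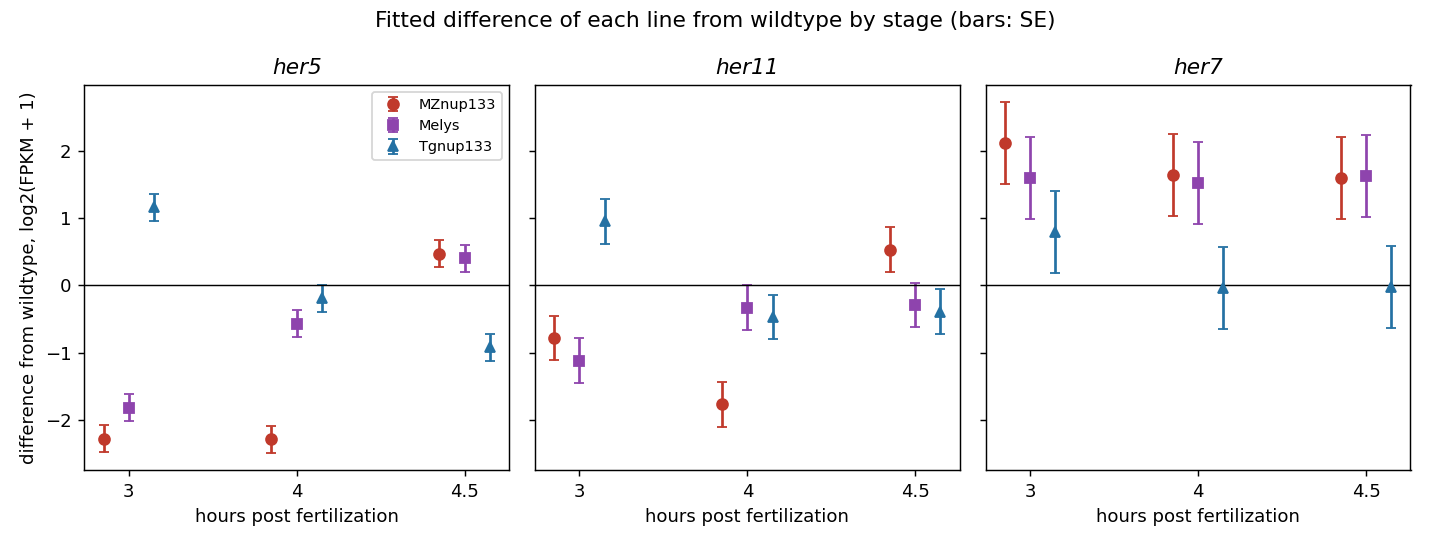
Fitted difference from wildtype on the log2(FPKM + 1) scale (y axis) of MZnup133, Melys and Tgnup133 at each stage (x axis, hours post fertilization) for her5, her11 and her7; points are limma estimates and bars their SE. For her5 the MZnup133 points lie at -2.28, -2.29 and 0.47 at 3, 4 and 4.5 hpf, while all 6 her7 points of MZnup133 and Melys lie between 1.52 and 2.11.

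Melys embryos had less her5 at 3 hpf, and their later values lay nearer to wildtype. Melys had 2.36, 155 and 167 FPKM of her5 at 3, 4 and 4.5 hpf, against 9.94, 225 and 140 FPKM in its wildtype. These values were 23.8%, 68.8% and 120% of wildtype. Melys lay below both wildtype libraries at 3 and 4 hpf and above both at 4.5 hpf, and its highest her5 value, like that of MZnup133, came at 4.5 hpf. her11 had 0.41, 38.9 and 25.4 FPKM in Melys, against 1.65, 49.3 and 36.6 FPKM in wildtype, so Melys lay below both wildtype libraries at every stage.

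her5 fell in Melys at 3 hpf by 1.82 ± 0.2 (limma adjusted p = 0.0497), where 0.741% of all genes fell; the call was lost when any 1 wildtype library was left out (limma adjusted p = 0.15 to 0.278) and in 8 other alternatives. The differences of her5 were -0.57 ± 0.2 at 4 hpf (limma adjusted p = 0.2) and 0.4 ± 0.2 at 4.5 hpf (limma adjusted p = 0.267). No member passed in limma at these stages, where 1.7% and 2.97% of all genes did; 2 members at 4 hpf and none at 4.5 hpf had an unadjusted p under 0.05. For her11 the differences were -1.12 ± 0.33, -0.33 ± 0.33 and -0.29 ± 0.33 at 3, 4 and 4.5 hpf (limma adjusted p = 0.172, 0.591 and 0.595). The Melys effect on her5 changed by 2.22 ± 0.27 between 3 and 4.5 hpf (limma adjusted p = 0.177), and 0% of all genes passed that test. Over the 3 stages, her5 differed by -0.66 ± 0.74 (limma adjusted p = 0.604) and her11 by -0.58 ± 0.47 (limma adjusted p = 0.455).

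Tgnup133 embryos showed no member past the test. They had 20.7, 165 and 54.2 FPKM of her5 at 3, 4 and 4.5 hpf, against 9.52, 193 and 93.4 FPKM in wildtype, which is 218%, 85.7% and 58% of wildtype. her11 had 5.09, 36.1 and 24.3 FPKM in Tgnup133, against 2.65, 50.4 and 27.6 FPKM in wildtype. Tgnup133 was above both wildtype libraries at 3 hpf and below both at 4 and 4.5 hpf for each gene. None of the 15 gene-and-stage pairs of Tgnup133 passed in limma, and 3 had an unadjusted p under 0.05; 0.0148%, 0.0445% and 0.0296% of all genes passed at 3, 4 and 4.5 hpf. The differences of her5 were 1.16 ± 0.2, -0.19 ± 0.2 and -0.92 ± 0.2 (limma adjusted p = 0.213, 0.71 and 0.205). The change of this effect between 3 and 4.5 hpf was -2.08 ± 0.27 for her5 (limma adjusted p = 0.547), a test that 0% of all genes passed.

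her5 and her11 had like profiles across the libraries. The Pearson r of their log2(FPKM + 1) values was 0.975 over the 15 libraries, which share stages and lines. her11 ranked 2nd among the 13492 other genes for likeness to her5, after si:ch73-299h12.2 (r 0.978) and before zgc:113886 (r 0.968, 1 of 3 IDs with that symbol). The genes most like her11 were si:ch73-299h12.2 (r 0.988), znf1091 (r 0.982, 1 of 2 IDs) and si:rp71-45k5.2 (r 0.977), and her5 ranked 4th. her5 exceeded her11 in every library, by 1.2 to 6.04 times at 3 hpf, 2.68 to 4.58 times at 4 hpf and 2.23 to 6.58 times at 4.5 hpf. The ratio of 1.2 is that of MZnup133 at 3 hpf, where the values were low, 1.01 and 0.837 FPKM. In the RefSeq annotation of assembly GRCz12tu the 2 genes are direct protein-coding neighbours.

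her7 was the member that rose in both knockout lines. MZnup133 had 5.17, 3.16 and 2.07 FPKM of her7 at 3, 4 and 4.5 hpf, against 0.96, 0 and 0 FPKM in wildtype of the nup133 set. Melys had 3.11, 2.65 and 2.01 FPKM, against 0, 0.71 and 0 FPKM in wildtype of the elys set. All 6 knockout libraries lay above all 6 wildtype libraries, and 4 of the wildtype libraries were listed at 0. Tgnup133 had 1.5, 0.3 and 0 FPKM. At 3 hpf it lay above all 6 wildtype libraries, and its lowest value equalled the lowest in wildtype.

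As 1 effect over the 3 stages, her7 rose in MZnup133 by 1.78 ± 0.28 (limma adjusted p = 0.00297). It was 1 of 5 members to rise and no member fell, where 13.7% of all genes rose and 8.32% fell. her7 rose in Melys by 1.58 ± 0.28 (limma adjusted p = 0.0085), again 1 of 5 members with none falling, where 5.48% of all genes rose and 4.65% fell. her7 reached the mean of 1 FPKM through the libraries in which it was high; with every gene above 0 tested, 22874 in all, the adjusted p was 0.00331 in MZnup133 and 0.00841 in Melys. The MZnup133 call was lost without 4 hpf (limma adjusted p = 0.0774). The Melys call was lost without any 1 stage (limma adjusted p = 0.055 to 0.1), without the Melys library of 3 or 4.5 hpf (0.0555 and 0.0524) and without the elys-set wildtype library of 3 or 4.5 hpf (0.0541 and 0.0528). It was also lost when the libraries of the elys set were fitted alone (limma adjusted p = 0.0534). With a pseudocount of 0.1 FPKM the differences were 3.93 in MZnup133 and 3.72 in Melys.

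The effects of the knockout lines on her7 differed by 0.2 ± 0.4, MZnup133 minus Melys (limma adjusted p = 0.842). No member passed this test in limma, none had an unadjusted p under 0.05, and 5.27% of all genes passed. At single stages her7 did not pass in either line, with differences of 2.11, 1.64 and 1.59 in MZnup133 and 1.59, 1.52 and 1.62 in Melys at 3, 4 and 4.5 hpf (SE 0.61 each, limma adjusted p = 0.131 to 0.25). In Tgnup133 her7 differed by 0.24 ± 0.28 over the 3 stages (limma adjusted p = 0.774) and her5 by 0.02 ± 0.74 (limma adjusted p = 1). No member passed there in limma, none had an unadjusted p under 0.05, and 1.95% of all genes passed.

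Few fragments stood behind her7. What 1 fragment was worth was chosen to bring as many of its 10 values above 0 as possible within 0.2 of a whole number. All 10 then were, but the choice favoured this, so it is no check of the fragment numbers. For her6 the same choice brought 12 of 14 values there. The estimates for her7 were 15, 10 and 6 fragments in MZnup133 and 9, 8 and 10 in Melys at 3, 4 and 4.5 hpf. Tgnup133 had 7, 1 and 0, wildtype of the nup133 set 3, 0 and 0, and wildtype of the elys set 0, 2 and 0. The sums were 31 in MZnup133 (exact Poisson interval at 95%, 21.1 to 44.0), 27 in Melys (17.8 to 39.3), 8 in Tgnup133 (3.45 to 15.8), 3 in wildtype of the nup133 set (0.619 to 8.77) and 2 in wildtype of the elys set (0.242 to 7.22). The intervals cover counting error only and take the estimated fragments as given. The summed relative depths were 2.84 in MZnup133, 3.44 in Melys, 4.01 in Tgnup133, 3.29 in wildtype of the nup133 set and 3.55 in wildtype of the elys set. By library, MZnup133 was deeper than its wildtype at 4.5 hpf (0.935 against 0.881). Melys was deeper than its wildtype at 4 hpf (0.956 against 0.887) and 4.5 hpf (1.58 against 1.28). At the other stages the knockout libraries were shallower. These depths are rough, since 48.5% to 68% of the low genes lay at a ratio of small whole numbers to the first library. A part of depth in the her7 difference was not tested.

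**Figure D3:**
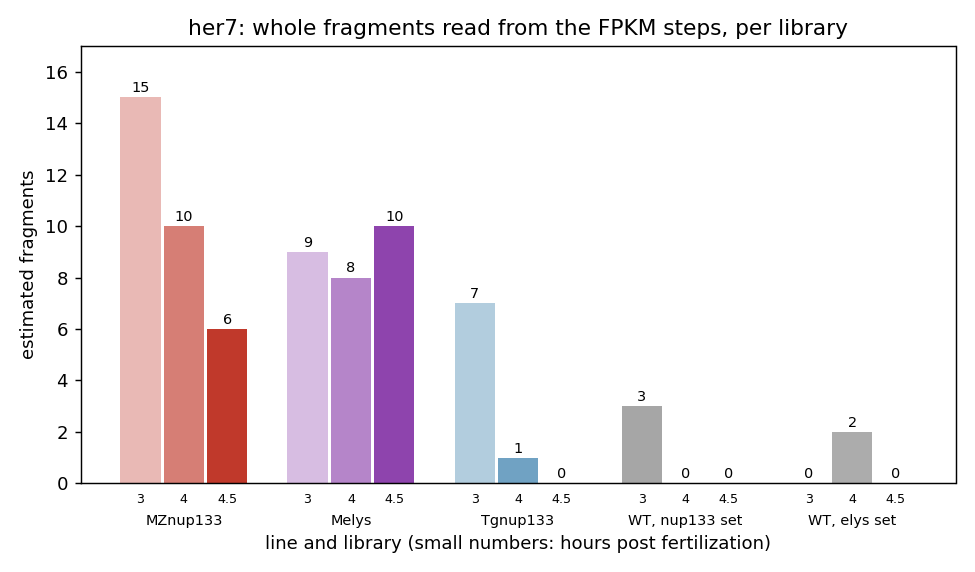
Estimated whole fragments of her7 (y axis, from 0) in each of the 15 libraries, as read from the steps between FPKM values; the small numbers under the bars are hours post fertilization. MZnup133 has 15, 10 and 6 fragments and Melys 9, 8 and 10, while no wildtype library has more than 3.

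her7 and its segmentation clock partner her1 are protein-coding neighbours in the RefSeq annotation of GRCz12tu, and a long non-coding entry, LOC141385683, overlaps both. The sources used here do not say whether the libraries keep strand, so reads of overlapping genes cannot be told apart. her1 did not share the values of her7. It had 0, 0 and 2.05 FPKM in MZnup133 and 0, 0.58 and 0 FPKM in Melys at 3, 4 and 4.5 hpf. Tgnup133 had 0.19, 1.02 and 0.37 FPKM of her1, wildtype of the nup133 set 0.27, 0.39 and 0 FPKM, and wildtype of the elys set 0, 0.62 and 0 FPKM. The MZnup133 library of 4.5 hpf held the highest value, from 7 estimated fragments, and 7 of the 15 libraries were listed at 0. The genes most like her7 across libraries were dtx4b (r 0.945), il1rapl1a (r 0.943) and chp1 (r 0.939).

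Among the members with roles in the neural plate, her6 rose in wildtype and her9 was all but missing. her6 had 0.57, 3.66 and 5.3 FPKM in the nup133 set and 0, 6.6 and 7.55 FPKM in the elys set at 3, 4 and 4.5 hpf. It rose by 2.55 ± 0.41 between 3 and 4.5 hpf (limma adjusted p = 0.0139), a call lost without the elys-set library of 3 hpf (limma adjusted p = 0.051) or either wildtype library of 4.5 hpf (0.084 and 0.0866), and with no filter on low values (0.0751). Its differences were 2.25 ± 0.41 between 3 and 4 hpf (limma adjusted p = 0.0563) and 0.3 ± 0.41 between 4 and 4.5 hpf (limma adjusted p = 0.664). her9 was listed at 0 in 14 libraries and had 0.38 FPKM, 1 estimated fragment, in wildtype of the nup133 set at 4.5 hpf. Unnamed RefSeq entries overlap her6 and her9 as well.

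her6 had 3.7, 2.32 and 9.83 FPKM in MZnup133 at 3, 4 and 4.5 hpf, against 0.57, 3.66 and 5.3 FPKM in its wildtype. MZnup133 was above both wildtype libraries at 3 and 4.5 hpf and below both at 4 hpf, and the difference over the stages was 0.62 ± 0.58 (limma adjusted p = 0.447). Melys had 2.42, 4.78 and 2.54 FPKM, against 0, 6.6 and 7.55 FPKM in its wildtype, so it was above both wildtype libraries at 3 hpf, between them at 4 hpf and below both at 4.5 hpf. Tgnup133 had 1.16, 6.13 and 5.37 FPKM, between the wildtype libraries at 4 and 4.5 hpf. The genes most like her6 were id1 (r 0.858), gas1a (r 0.855) and stmn1b (r 0.853).

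her3 had its highest wildtype values at 4 hpf and was low or listed at 0 in both knockout lines at that stage. It had 0, 0.57 and 2.43 FPKM in MZnup133 at 3, 4 and 4.5 hpf, against 0.57, 3.63 and 0.64 FPKM in its wildtype. Melys had 0, 0 and 0.36 FPKM, against 0, 2.57 and 1.32 FPKM in its wildtype. Tgnup133, at 0.38, 3.19 and 1.54 FPKM, lay between the wildtype libraries at 3 and 4 hpf. At 4 hpf the difference of her3 was -1.46 ± 0.47 in MZnup133 (limma adjusted p = 0.118) and -1.93 ± 0.47 in Melys (limma adjusted p = 0.116). Over the stages her3 differed in Melys by -0.87 ± 0.5 (limma adjusted p = 0.301). In wildtype it differed by 1.7 ± 0.36 between 3 and 4 hpf (limma adjusted p = 0.0762) and by -1.05 ± 0.36 between 4 and 4.5 hpf (limma adjusted p = 0.145). No library held more than 9 estimated fragments of her3, and its most alike genes were CU694197.1 (r 0.907), irx3b (r 0.88) and tuba1c (r 0.88).

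**Figure D4:**
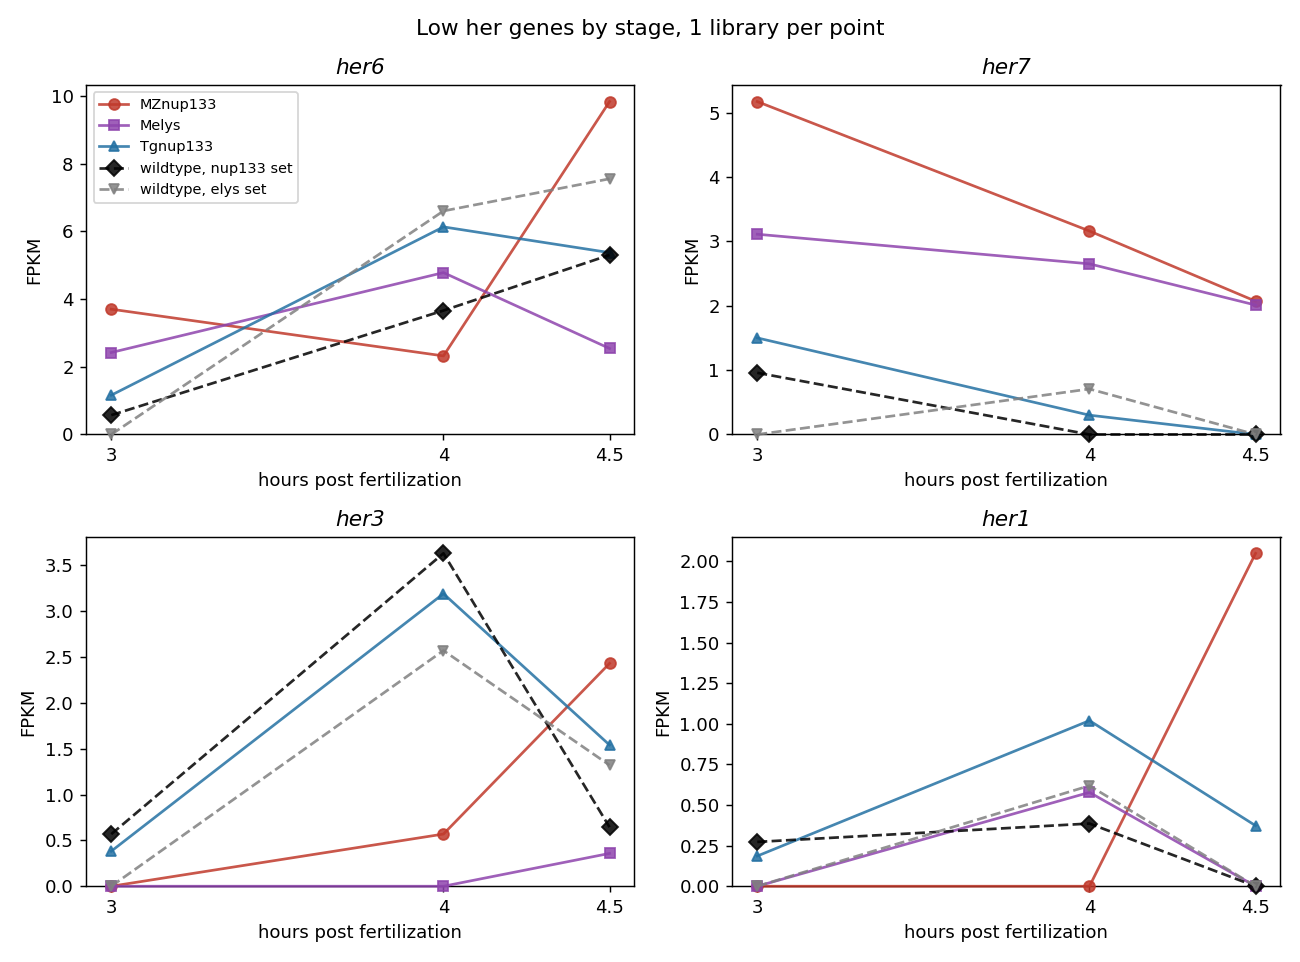
FPKM (y axes, linear, from 0, with a scale of its own in each panel) of her6, her7, her3 and her1 against hours post fertilization, 1 library per point, with solid lines for MZnup133, Melys and Tgnup133 and dashed lines for the 2 wildtype sets. In the her7 panel both knockout lines run above both wildtype sets throughout; at 4.5 hpf MZnup133 is the highest library for her6 (9.83 FPKM), her3 (2.43 FPKM) and her1 (2.05 FPKM).

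The relatives of the her genes in the Hairy, Enhancer of split and Hey family were mostly low at these stages: of 21 listed, 15 were in the table and 5 were tested. Between 3 and 4.5 hpf in wildtype 3 of the 5 rose and 1 fell, where 14.1% of all genes rose and 22.8% fell, with a median difference of 2.58 against -0.16 over all genes tested. hey1, a partner of Hairy proteins in heterodimers, rose by 4.63 ± 0.24 (limma adjusted p = 0.00182), hes6 by 3.32 ± 0.31 (limma adjusted p = 0.00449) and her8a by 2.58 ± 0.3 (limma adjusted p = 0.00682). The filter favoured these rises, since hey1, hes6 and her8a reached the mean of 1 FPKM through libraries in which they were high. Their wildtype means were 0.174, 0.61 and 0.18 FPKM at 3 hpf and 28.2, 14.9 and 6.11 FPKM at 4.5 hpf. Falls of these genes in the knockout lines carry the same limit. With no filter on low values, the fall of hes6 in Melys over the stages was lost (limma adjusted p = 0.0585). So were the falls of hey1, hes6 and her8a by stage given below, except that of hey1 in Melys at 4.5 hpf. hey2, a vascular and cardiac regulator later in development, fell by 1.48 ± 0.35 (limma adjusted p = 0.0349). In Melys 1 of the 5 fell over the stages and none rose, where 4.65% of all genes fell. This was hes6, which had 0, 0 and 1.08 FPKM in Melys across 3, 4 and 4.5 hpf, against 0.878, 4.48 and 14.6 FPKM in wildtype (difference -2.09 ± 0.49, limma adjusted p = 0.0269). The median was -0.75 in Melys, against 0.07 over all genes. In MZnup133 none of the 5 passed in limma over the stages, where 22% of all genes passed. Of the 5, 3 had an unadjusted p under 0.05 in limma, with a median of -1.22 against 0.15 over all genes.

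Tested stage by stage, 3 of these 5 relatives fell in MZnup133 at 4.5 hpf and 1 at 4 hpf, where 8% and 5.2% of all genes fell. At 4.5 hpf they were hey1 (-2.03 ± 0.31, limma adjusted p = 0.0275), hes6 (-2.22 ± 0.4, limma adjusted p = 0.0333) and her8a (-1.76 ± 0.39, limma adjusted p = 0.0468), and at 4 hpf hey1 (-2.03 ± 0.31, limma adjusted p = 0.0362). hey1 had 0.611, 1.86 and 6.38 FPKM in MZnup133 at 3, 4 and 4.5 hpf, against 0.143, 10.6 and 31.4 FPKM in its wildtype, so MZnup133 lay below wildtype at the later stages. In Melys 2 of the 5 fell at 4.5 hpf, where 1.62% of all genes fell. They were hey1 (-3.02 ± 0.31, limma adjusted p = 0.0391), with 2.44 FPKM in Melys against 25 FPKM in wildtype, and hes6 (-3.14 ± 0.4, limma adjusted p = 0.0443). Every one of these calls, and of the calls by stage given below for corepressor and Notch genes, was lost when any 1 wildtype library was left out. Leaving out a wildtype library of any stage also lowers the residual degrees of freedom of this fit.

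Groucho proteins, made from the tle genes, are the corepressors that Hairy proteins bring to DNA, and the shorter Tle5 counteracts them. Of 7 listed, 6 were in the table and tested. In MZnup133 3 rose over the stages and none fell, where 13.7% of all genes rose and 8.32% fell, with a median of 0.57 against 0.15 over all genes. tle3a rose by 1.25 ± 0.24 (limma adjusted p = 0.00723), tle5 by 1.03 ± 0.29 (limma adjusted p = 0.0336) and tle3b by 0.78 ± 0.16 (limma adjusted p = 0.0103). tle3a had 52.1, 50.1 and 32 FPKM in MZnup133 at 3, 4 and 4.5 hpf. Wildtype had 33.7, 21.6 and 7.49 FPKM in the nup133 set and 52.1, 34.4 and 17.9 FPKM in the elys set. At 3 hpf MZnup133 thus had the same value as the elys-set library. Tgnup133 had 61.4, 33.5 and 16.9 FPKM of tle3a. For tle5, MZnup133 had 7.24, 5.3 and 2.06 FPKM. The nup133 set had 3.58, 1.55 and 0.614 FPKM, the elys set 4.99, 2.44 and 2.11 FPKM, and Tgnup133 7.46, 1.79 and 1.66 FPKM. By stage, tle3a was the 1 gene of this list to rise at 4 hpf (1.25 ± 0.23, limma adjusted p = 0.0487) and at 4.5 hpf (1.78 ± 0.23, limma adjusted p = 0.023), where 4.65% and 13.5% of all genes rose. With no control set term these differences of tle3a were 0.85 and 1.38, and both calls were lost. In Melys tle3b alone passed over the stages, higher by 0.78 ± 0.16 (limma adjusted p = 0.0169), and the median was -0.15. In that line 5.48% of all genes rose. In wildtype tle2b rose by 1.35 between 3 and 4.5 hpf, while tle3a (-1.76) and tle5 (-1.22) fell, and the median was -0.43. That was 1 of 6 rising and 2 falling, where 14.1% of all genes rose and 22.8% fell.

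Of the Notch pathway genes that act upstream of many her genes, 1 ligand was tested: all 9 listed were in the table, and jag2b alone had a mean of at least 1 FPKM. It was above 0 in every library, from 2.46 to 8.15 FPKM. It passed in no line over the stages and had no unadjusted p under 0.05 in MZnup133 or Melys (limma). All 4 receptors were in the table and 3 were tested. Between 3 and 4.5 hpf in wildtype notch3 rose by 2.58 ± 0.29 (limma adjusted p = 0.00642) and notch2 fell by 1.14 ± 0.25 (limma adjusted p = 0.0307), with a median of 0.8. That was 1 of 3 rising and 1 falling, where 14.1% of all genes rose and 22.8% fell. notch3 passed the filter through libraries in which it was high, with wildtype means of 0.024 FPKM at 3 hpf and 5.31 FPKM at 4.5 hpf. Its fall in MZnup133, given below, was lost with no filter on low values. Over the stages no receptor passed in MZnup133 or Melys in limma, where 22% and 10.1% of all genes passed. In each line 1 receptor had an unadjusted p under 0.05 in limma, and the medians were -0.35 and 0.36. At 4.5 hpf notch3 fell in MZnup133 (-1.79 ± 0.38, limma adjusted p = 0.0433), where 8% of all genes fell.

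Of 20 listed genes of Notch processing and transcription, 17 were in the table and tested. In wildtype 4 rose and 6 fell between 3 and 4.5 hpf, where 14.1% of all genes rose and 22.8% fell, with a median of -0.2. Among those that passed, the largest differences were those of lfng, a glycosyltransferase that modifies Notch (5.28 ± 0.22, limma adjusted p = 0.00135), nrarpa, a feedback inhibitor (1.85 ± 0.22, limma adjusted p = 0.00723), maml3, a coactivator (-1.56 ± 0.22, limma adjusted p = 0.0099), and rbpjb, the DNA-binding partner of cleaved Notch (-1.16 ± 0.17, limma adjusted p = 0.0109). In MZnup133 1 rose and 3 fell over the stages, where 13.7% of all genes rose and 8.32% fell, with a median of -0.07. lfng fell by 1.3 ± 0.39 (limma adjusted p = 0.0402), with 0.324, 18 and 75.2 FPKM in MZnup133 across 3, 4 and 4.5 hpf. Wildtype had 1.79, 88.2 and 114 FPKM in the nup133 set and 1.18, 102 and 79.3 FPKM in the elys set. This call was lost without any 1 stage (limma adjusted p = 0.0564 to 0.348). adam10a, a protease that cuts Notch outside the cell, fell by 0.67 ± 0.17 (limma adjusted p = 0.0228). Of the gamma-secretase subunits, psenen fell by 0.57 ± 0.14 (limma adjusted p = 0.0186) and aph1b rose by 0.49 ± 0.15 (limma adjusted p = 0.0427). By stage, nrarpa rose (2.06 ± 0.29, limma adjusted p = 0.0495) and psenen fell at 3 hpf (-0.97 ± 0.13, limma adjusted p = 0.0465), where 1.19% of all genes rose. At 4 hpf lfng (-2.45 ± 0.28, limma adjusted p = 0.0239) and adam10a (-0.84 ± 0.12, limma adjusted p = 0.0342) fell. At 4.5 hpf adam10a fell (-1 ± 0.12, limma adjusted p = 0.021) and rbpja rose (0.59 ± 0.11, limma adjusted p = 0.0363). Of the 17 genes, 1 rose and 1 fell at 3 hpf, 2 fell at 4 hpf, and 1 rose and 1 fell at 4.5 hpf. The share of all genes that fell in MZnup133 was 1.82%, 5.2% and 8% at 3, 4 and 4.5 hpf, and 13.5% rose at 4.5 hpf. In Melys over the stages numb, an inhibitor of Notch, rose by 0.75 ± 0.17 (limma adjusted p = 0.0225), where 5.48% of all genes rose. No other gene of this list passed in Melys, and the median was 0.03. In Tgnup133 none of the 32 tested genes of the 5 lists passed in limma over the stages, where 1.95% of all genes passed. Of the 32, 1 had an unadjusted p under 0.05 in limma. Of the calls over the stages in these lists, that of tle3a in MZnup133 held without any 1 of the 15 libraries. It was lost without 4 hpf (limma adjusted p = 0.142) and without 4.5 hpf (limma adjusted p = 0.0732). The others were lost without 2 of the 15 libraries for psenen, 3 for tle3b, 4 for adam10a, 5 for tle5, 10 for lfng and 12 for aph1b in MZnup133, and without 4 for hes6, 4 for tle3b and 6 for numb in Melys. Losses under other settings are not in these counts. Each difference is estimated from the libraries of the line and of wildtype in its set, so leaving out another library moves only the error. When single libraries were left out, the calls of psenen, tle3b, adam10a and tle5 in MZnup133 were lost only without such own libraries. The same held for hes6, tle3b and numb in Melys. Each of these calls was also lost without at least 1 whole stage. With the own control set fitted alone, those of psenen, adam10a and tle5 in MZnup133 and of hes6 and tle3b in Melys were lost too. Of the wildtype calls between 3 and 4.5 hpf in these 5 lists, those of hey1, hes6 and lfng held in all 20 alternatives. Each of the others in these lists was lost without at least 1 wildtype library.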

How the data were processed

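The authors deposited 1 table of FPKM values per gene and library. Reads had been handled with Trim Galore, STAR 2.5.3a and Cufflinks 2.2.1 on genome build GRCz11, per the submitters' processing notes; neither strandedness nor annotation is stated there. Of 23800 rows, 74 repeats of a gene ID were dropped. The control set of a wildtype library was read from the number that opens its column name, which it shares with the mutant columns. Absolute depth is unknown, FPKM sums ran from 508714.6 to 575118.3, and relative depth was estimated from 566 to 910 low genes per library.

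The members and gene lists were chosen with earlier results of these data known. Tests used limma 3.58.1 (R 4.3.3) on log2(FPKM + 1), with a trend and two-sided, for the 13493 genes averaging 1 FPKM or more, adjusted by Benjamini-Hochberg over all of them. One fit had a level per control set and stage and 1 effect per line (6 residual degrees of freedom); there the 3 stages stand in for replicates, and differences of the effect between stages widen the error. The fit by stage and for wildtype stages had 12 group means and a control set term (2 residual degrees of freedom). These come from the wildtype pairs alone, so leaving out any wildtype library lowers them. The pipeline was tested on simulated data. Named genes were the members, nup133 and ahctf1, from each list at most 4 called genes with the largest differences, and per tested member the 3 genes with the highest r. Sequences and coordinates were not used here.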

Additional observations from a re-analysis of the deposited data

How the results depend on the processing

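Of 2033 alternative values for single genes, 1667 kept their direction and their side of the threshold, 350 lost the call, 4 gained it and 12 changed sign. The number of members past the threshold over the 3 stages in MZnup133, which was 1, became 0 without 4 hpf and 2 without 4.5 hpf, and ran from 1 to 3 when single libraries were left out. In Melys it was 1, and 0 without any 1 stage or with its own control set only, and 0 to 1 without single libraries. For 4 against 3 hpf in wildtype it was 2, and 0 with no filter on low values, and 0 to 2 without single libraries; for 4.5 against 3 hpf it was 3, and 2 with no filter and 2 to 3 without single libraries. By stage, MZnup133 had 3 calls, 0 with no filter and 0 to 3 without single libraries. Melys had 1 call by stage, 0 with no filter, with libraries rescaled to the same FPKM sum or with no control set term, and 0 to 1 without single libraries. Without the filter 22874 genes were tested. Leaving out a wildtype library lowers the residual degrees of freedom of the fit by stage. The causes of these changes were otherwise not tested.

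The sign changes were all of differences that passed no test. her5 in Tgnup133 over the stages (0.02) was -0.13 with no control set term, -0.5 without 3 hpf, and from -0.75 to 0.91 without single libraries. The MZnup133 minus Melys difference of her7 (0.2) was -0.18 without 4 hpf and from -0.04 to 0.43 without single libraries, and that of her5 (-0.71) ran from -1.89 to 0.06. Without single libraries her6 ran from -0.1 to 0.71 between 4 and 4.5 hpf in wildtype, her7 from -1.16 to 0.19 between 3 and 4.5 hpf in wildtype, and her11 from -0.51 to 0.13 in Melys at 4.5 hpf. The fit over the 3 stages sets each line against wildtype of its own control set and stage; the labels give no replicate numbers for any other pairing. The members other than her5 and her11 rest on few fragments a library, which limits what can be called for them. her5 and her11 were low as well in the knockout lines at 3 hpf. They had 1.01 and 0.837 FPKM in MZnup133 and 2.36 and 0.41 FPKM in Melys, and their fragments were not estimated.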
